A study of Mus musculus with 2 samples.

Results

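The Sox10 locus of melan-a mouse melanocytes was described from every EP300 peak and every H3K4me1 region that overlaps chromosome 15 from 78.95 to 79.07 Mb (mm9), a window of 120 kb that holds Sox10 and the sequence upstream of it. The members were chosen by position. The window itself was set with earlier results of these data known, and its inner split was chosen from measured values, since 3 EP300 loci between 78.985 and 78.996 Mb had far more tags in replicate 1 than in replicate 2. It holds 49 of the 78725 deposited peaks and regions: 11 of the 8451 EP300 peaks of replicate 1, 13 of the 10351 of replicate 2, and 25 of the 59923 H3K4me1 regions. The files name no genes, and no mm9 annotation was used here, so no peak is assigned to an exon, an intron or a promoter. Loci are numbered 1 to 10 from the lowest to the highest coordinate.

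SOX10 is a transcription factor of the SOX family that neural crest cells need to form melanocytes and peripheral glia. In melanocytes it acts together with MITF, and pigment enzyme genes such as Dct are among its targets. Sox10 is read toward lower coordinates, so its upstream side is the higher-coordinate part of the window, and conserved elements on that side are known to drive reporter genes in neural crest derivatives. EP300 is a histone acetyltransferase recruited by transcription factors to active enhancers and promoters. H3K4me1, histone H3 with a single methyl group on lysine 4, marks enhancers, often on both sides of the factor-bound stretch, and is usually low at the start sites of active genes. In the RefSeq gene order (GRCm38.p6) Polr2f, a shared subunit of the RNA polymerases, precedes Sox10, and 3 long noncoding RNA genes separate Sox10 from Pick1, which encodes a PDZ-domain protein that binds protein kinase C.

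The study holds 2 samples of 1 immortal melanocyte line, melan-a, labelled C57BL/6 Ink4a -/-, with no treatment and no second condition. Chromatin was immunoprecipitated with 10 ug of anti-p300 or 2 ug of anti-H3K4me1. Each sample stands for 2 replicates, deposited as 2 EP300 lists, called from 31439027 and 32355042 filtered tags, and as 1 H3K4me1 list whose depth is unknown. The labels do not say whether the replicates came from separate cultures, so their spread may be technical. Without expression data, the melanocyte label could not be checked against marker genes.

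EP300 at the window formed 10 loci called in both replicates and 4 called in a single list. All but 1 of the 11 replicate 1 peaks were also found in replicate 2, where 42.9% of all replicate 1 peaks were. Of the 13 replicate 2 peaks, 10 were found in replicate 1, where 34.8% of all replicate 2 peaks were. These 14 loci lay between 78982394 and 79054798, and no peak of either list lay in the remaining parts of the window. Beyond the window, the nearest EP300 peaks were distant. On the lower side they lay 252751 bp away in replicate 1 (26 tags, 4.86-fold enriched) and 130462 bp away in replicate 2 (43 tags, 5.59-fold). On the higher side they lay 120250 bp away in replicate 1 (28 tags, 4.56-fold) and 83704 bp away in replicate 2 (52 tags, 5.87-fold). Those of replicate 1 were below the medians of its list, 43 tags and 5.79-fold. Those of replicate 2 were at or above the medians of its list, 43 tags and 5.57-fold. When the genome was laid out in tiles of 120 kb from the edge of this window, 2543 tiles held the centre of a shared EP300 locus and no other tile held as many as 10. This describes a window set with those results known. Among stretches starting at any shared locus, 2 without overlap reached 10, and with loci 1 to 3 left out 3 tiles held at least the remaining 7.

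**Figure D1:**
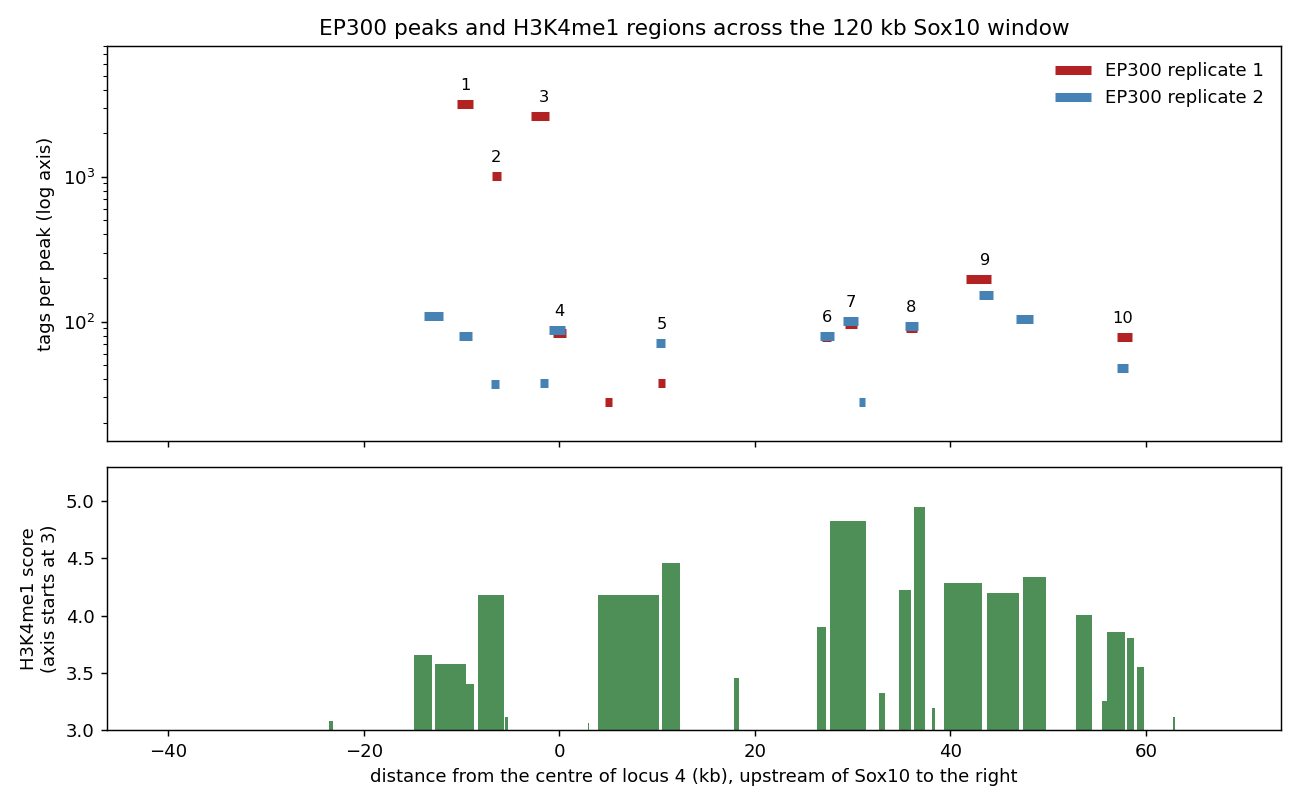
EP300 peaks and H3K4me1 regions across the window, by distance from the centre of locus 4 in kb. The upper panel shows each peak as a bar at its tag count (log axis, replicate 1 red, replicate 2 blue, shared loci numbered), and the lower panel each H3K4me1 region up to its score. At loci 1 to 3 the replicate 1 bars stand at 1015 to 3164 tags and the replicate 2 bars at 37 to 79, whereas at loci 4 to 10 both lie between 38 and 198.

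Loci 1 to 3, on the Sox10 side, span 9374 bp. Locus 1 (78985812 to 78987364) held 3164 tags in replicate 1 and 79 in replicate 2. Locus 2 (78989191 to 78990279) held 1015 and 37 tags. Locus 3 (78993337 to 78995185) held 2620 and 38 tags. In each of them replicate 1 is high and replicate 2 is close to its list's median of 43 tags per peak or up to 79. Scaled to the filtered tags of each library, replicate 1 exceeded replicate 2 by 41.2 times at locus 1 (interval 33.0 to 52.2), 28.2 times at locus 2 (20.3 to 40.3) and 71.0 times at locus 3 (51.6 to 100.5). Per bp of peak the ratios were 35.5, 27.0 and 30.0, so that locus 3 was no longer the highest. The intervals are exact 95% intervals of the tag ratio for counting error only, and they compare 2 libraries. The scaled tag ratios are the 3 highest of the 3573 shared loci and belong to the 0.14% with ratios over 8, but they chose these loci and support nothing further. Locus 4, which straddles the upper edge of the split, had a ratio of 0.982.

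The replicate 1 peaks at loci 1 to 3 were the densest of their list. Densities and tag shares rest on the same tags that set these loci apart, so they describe them and add no support. They held 2.04, 1.14 and 1.42 tags per bp of peak, in the order of the loci, and rank 1, 3 and 2 among 8451 peaks, against a list median of 0.0492. The fourth, on chromosome 17, had 1.09. With at most 2 tags kept at each position, and the strands counted apart, 4 tags per bp is the most that filtering allows. The same 3 loci in replicate 2 had 0.0591, 0.0436 and 0.0486 tags per bp, against that list's median of 0.0494. By density these replicate 2 peaks ranked 2473, 8769 and 5575 of 10351. Together loci 1 to 3 took up 1.45% of all tags in replicate 1 peaks and 0.0263% of those in replicate 2 peaks.

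**Figure D2:**
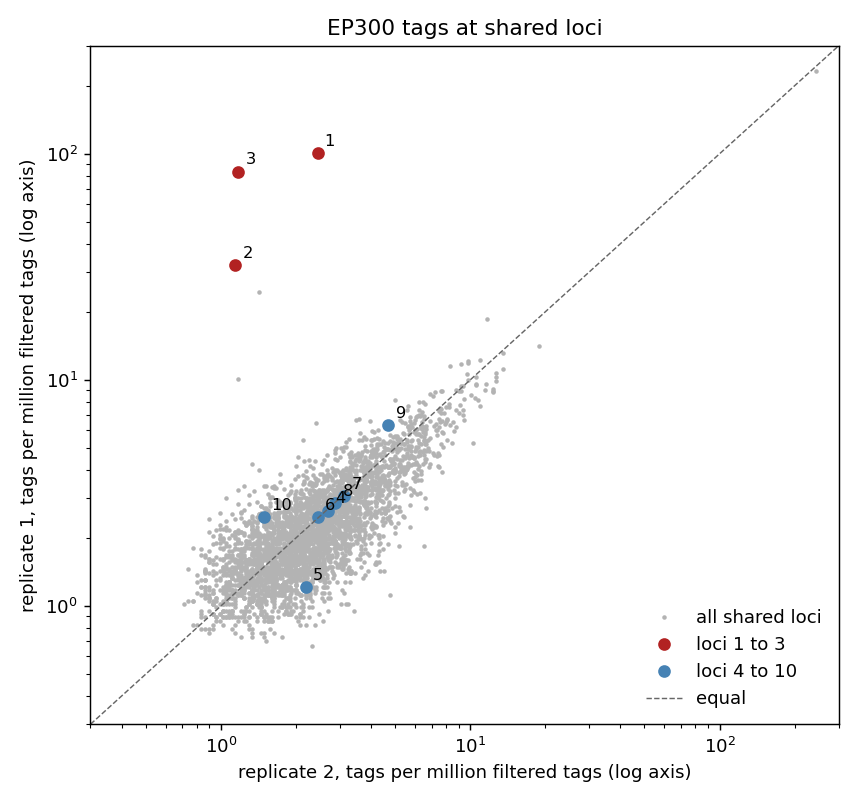
Tags per 1000000 filtered tags at the 3573 shared EP300 loci, replicate 2 on the x axis and replicate 1 on the y axis (both log). Loci 1 to 3 (red) lie apart, at 32.3 to 100.6 in replicate 1, while loci 4 to 10 (blue) lie in the main cloud along the dashed line of equal values.

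The peak caller takes the local background from the control library. At loci 1 to 3, enrichment over that background differed less between the replicates than tags did. Fold enrichment at the summit was 21.8 at locus 1 in replicate 1 and 6.14 in replicate 2, a ratio of 3.54. At locus 2 it was 35.6 and 6.21, a ratio of 5.73, and at locus 3 it was 46.2 and 5.56, a ratio of 8.32. Locus 1 thus had the most tags of the 3 and the lowest enrichment in replicate 1, where it ranked 69 by enrichment. Tags per bp divided by fold enrichment give a lower bound on that background. Relative to the genome-wide level it was at least 5.69 times at locus 1 in replicate 1, at least 1.95 times at locus 2 and at least 1.86 times at locus 3. In replicate 2 the background solved from tags and significance was 1.15, 1.05 and 1.11 times. The replicate 1 control was therefore also above the genome-wide level at or around these loci. Lower bounds do not rank the loci. What part this has in the replicate 1 tags was not tested, and the lists do not show whether the excess tags at loci 1 to 3 come from EP300 binding.

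The summits of the replicates coincided less well at locus 3 than elsewhere in the window. They were 850 bp apart at locus 3, 202 bp at locus 1 and 62 bp at locus 2. At loci 4 to 10 the distance ran from 19 to 277 bp with a median of 102 bp, and over all shared loci the median was 67 bp. The replicate 2 peak of locus 3 was 782 bp long and lay within the upper part of the replicate 1 peak of 1849 bp.

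**Figure D3:**
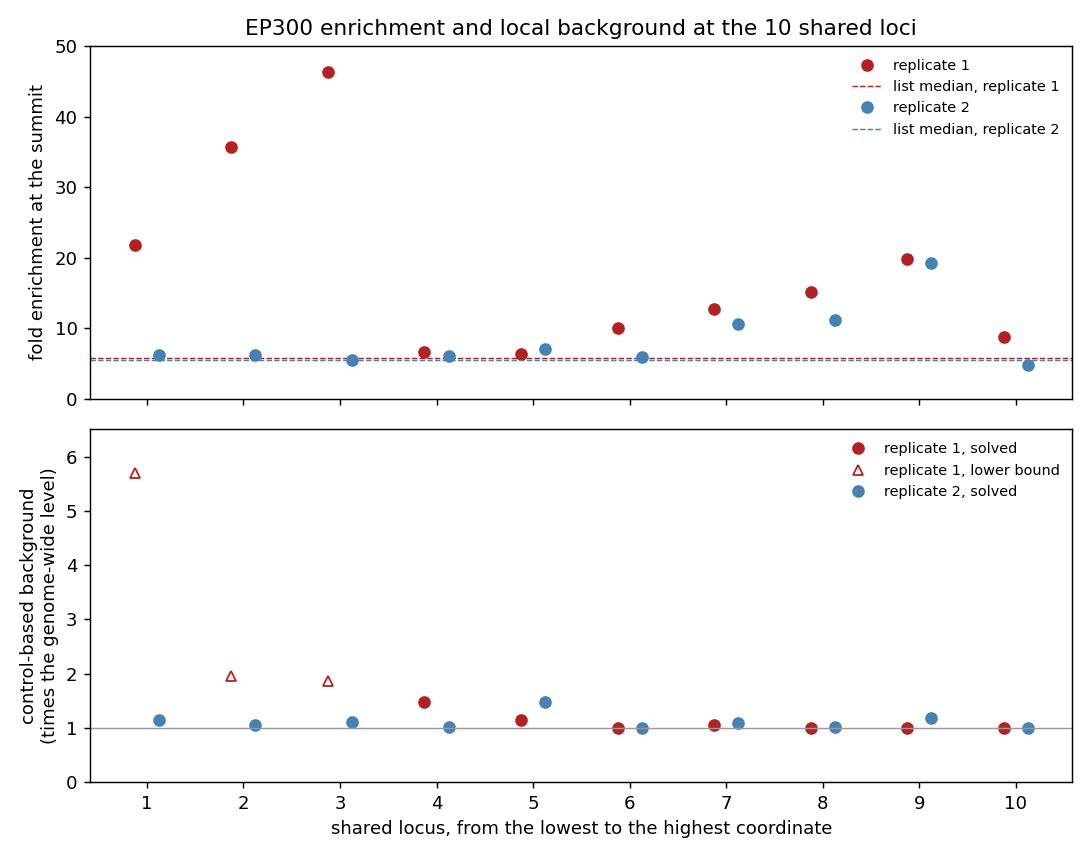
Fold enrichment at the summit (upper panel, dashed lines at the list medians of 5.79 and 5.57) and control-based background relative to the genome-wide level (lower panel) at shared loci 1 to 10. Points are replicate 1 (red) and replicate 2 (blue), and open triangles are lower bounds. The lower bound of 5.69 at locus 1 in replicate 1 stands apart, and all points of loci 4 to 10 lie between 0.990 and 1.48.

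Locus 4 (78995191 to 78996924) straddles the upper edge of the split and, with the peaks of both lists merged, began 5 bp beyond locus 3. In replicate 1 alone the peak of locus 3 ended at 78995185 and that of locus 4 began at 78995602. Locus 4 held 83 tags in replicate 1 and 87 in replicate 2, so that the large excess of replicate 1 stops between neighbouring peaks. The split was itself chosen from such values, so this is a description only. Its scaled tag ratio was 0.982 (interval 0.718 to 1.34), and its enrichment was 6.57-fold and 6.11-fold. The solved background was 1.48 times the genome-wide level in replicate 1 and 1.01 times in replicate 2. With nearly equal tags the authors' significance, 10 times the -log10 p, was 136 in replicate 1 and 187 in replicate 2. At locus 5 the order was the other way, with 1.15 times in replicate 1 and 1.47 times in replicate 2.

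Upstream of Sox10, EP300 was strongest at locus 9 in both lists, by tags and by enrichment. Locus 9 (79037849 to 79040551), 43.5 kb from the centre of locus 4, held 198 tags in replicate 1 and 152 in replicate 2. Its enrichment of 19.7-fold and 19.3-fold was nearly the same in both lists. It ranked 111 of 8451 and 152 of 10351 by significance, and 101 of all 3573 shared loci by the mean of both ranks. In replicate 1 the peak was 2499 bp long and in replicate 2 1392 bp. Its scaled tag ratio of 1.34 (interval 1.08 to 1.67) turned to 0.747 when tags were divided by peak length, so the direction of this difference depends on the peak edges.

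Next in strength were loci 8 and 7. Locus 8 (79031560 to 79032891) held 90 and 93 tags, with 15.2-fold and 11.2-fold enrichment. Locus 7 (79025221 to 79026797) held 96 and 101 tags, with 12.7-fold and 10.6-fold enrichment. The scaled ratios were 0.996 (interval 0.737 to 1.35) and 0.978 (0.732 to 1.31), so neither difference exceeded counting error. Locus 6 (79022936 to 79024371) held 78 and 79 tags, a scaled ratio of 1.02 (0.734 to 1.41), but was 10.0-fold enriched in replicate 1 and 5.90-fold in replicate 2, where its peak was longer, at 1436 bp against 951 bp. Per bp of peak the ratio of locus 6 was 1.53. By summed tags no difference between the lists was detectable at loci 6 to 8, and by enrichment all of them were higher in replicate 1.

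In summed tags, loci 5 and 10 differed between the replicates in opposite directions. Locus 5 (79006068 to 79007088), 10.5 kb from locus 4, held 38 tags in replicate 1 and 71 in replicate 2. The scaled tags were 1.82 times higher in replicate 2 (interval 1.21 to 2.77), and enrichment was 6.36-fold and 7.02-fold. Locus 10 (79053253 to 79054798), 57.6 kb from locus 4, held 78 and 48 tags. There the scaled tags were 1.67 times higher in replicate 1 (1.15 to 2.45), with 8.81-fold and 4.72-fold enrichment. At each of these loci the list with more tags also had the longer peak. The lengths in replicates 1 and 2 were 763 and 1021 bp at locus 5, and 1546 and 1162 bp at locus 10. Per bp of peak the ratios of replicate 1 over replicate 2 were 0.737 and 1.26, so both differences were smaller. Intervals were not computed for the ratios per bp. Stretches without a shared locus, of 15847 bp between loci 5 and 6 and 12701 bp between loci 9 and 10, separate loci 5 and 10 from loci 6 to 9.

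Over loci 4 to 10 together, the replicates held 661 and 631 tags, a scaled ratio of 1.08. The ratio at each locus ran from 0.551 to 1.67 with a median of 0.996, within the range of 0.471 to 1.82 that holds the central 95% of all shared loci. Loci 4 to 10 are those left once loci 1 to 3 were set apart by their ratios, so the lack of extreme ratios partly follows from that choice. For 4 of the 7 the interval of the ratio included 1, as it did for 68.6% of all shared loci. Enrichment was higher in replicate 1 at 6 of the 7, where 57.9% of all shared loci were. By significance, 4 of the 7 were in the upper 10% of replicate 1 and 3 in the upper 10% of replicate 2, where 10% of each list is. Median enrichment of these 7 peaks was 10.0-fold in replicate 1 and 7.02-fold in replicate 2, against list medians of 5.79 and 5.57.

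Of the 4 EP300 peaks found in a single list, 3 came from replicate 2. The peak at 79042928 to 79044695 held 104 tags and was 8.36-fold enriched, more than every shared locus of the window in that list except loci 7 to 9. The peak at 78982394 to 78984342, which lies 1469 bp below locus 1, held 109 tags but was only 3.61-fold enriched, over a solved background of 1.47 times the genome-wide level. The third, at 79026861 to 79027505, held 28 tags (4.13-fold) and lay 63 bp beyond locus 7. The peak of replicate 1 alone, at 79000950 to 79001614, held 28 tags as well and was 3.95-fold enriched. Tags of the other replicate at these positions are not part of a peak list, so these peaks show what was called and not that the other library had no signal.

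H3K4me1 covered the Sox10 side and the upstream side as far as 79056049 densely. The 25 regions together covered 41050 bp, 34.2% of the window, against 2.02% of the effective genome size for the whole list. Coverage was 49.5% between 78.985 and 78.996 Mb and 52.9% from there to 79056049, the end of the last region of the upstream group. It was 10.4% below 78.985 Mb and 1.43% beyond 79056049. That end was taken from the regions themselves, so 52.9% is not the share of the whole upstream side. By total region length, 5 of the 10295 tiles of 120 kb with a region, this window included, held as much, and by number of regions 114 tiles held as many. The -log10 p stopped at 100 for 15 of the 25 regions, where 39.1% of the list did. By the authors' rank, 11 of the 25 were in the upper 10% of the list, where 10% of all regions are. Median region length was 1150 bp, against 500 bp over the list, and the median maximum log2 fold change was 4.32 against 3.72.

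The best-ranked H3K4me1 regions lay on the upstream side. The region at 79032500 to 79033649 ranked 9 of 59923, with a score of 4.95 and a log2 fold change of 5.86, and overlaps the upper end of locus 8. On the other side of that locus, the region at 79030950 to 79032199 ranked 1119. The region at 79023950 to 79027549 ranked 23, with a score of 4.83 and a log2 fold change of 5.64, and extends over locus 7, part of locus 6 and a replicate 2 peak. The highest points of both regions lay outside the EP300 loci, between loci 6 and 7 for the region ranked 23 and beyond the upper end of locus 8 for the region ranked 9. Other regions of the window went either way. The highest points of those ranked 1119, 799 and 1427 lay within loci 8, 9 and 2, while that of the region ranked 260 lay beyond locus 5. The regions beside locus 9, at 79035600 to 79039449 and 79039950 to 79043249, ranked 799 and 1301. The region at 79006700 to 79008599, at locus 5, ranked 260, and that at 79043650 to 79046049, which overlaps the replicate 2 peak of 104 tags described above, ranked 576. The longest region of the window, at 79000150 to 79006449, was 6300 bp long, 18th in length of the whole list, and covers the replicate 1 peak of 28 tags and the start of locus 5.

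At loci 1 to 3 the best rank of an H3K4me1 region was 1427, against 9 on the upstream side. No region was called over loci 3 and 4. Both lie in a stretch of 8200 bp with no region, between a region that ends at 78990949 and a region that starts at 78999150, and the nearest regions were 2388 bp from locus 3 and 2226 bp from locus 4. The regions on either side of this stretch ranked 48972 and 54582, near the end of the list. Locus 2 lay within the region at 78987900 to 78990599, which ranked 1427 the best on the Sox10 side. Locus 1 overlapped a region on each side of its centre, and these ranked 16260 and 26373. Of the 10 shared loci, 8 had H3K4me1 within 1000 bp, where 96.1% of all shared loci did, and the same 8 overlapped a region, where 90.6% did. Loci 3 and 4 are the 2 without. Since the H3K4me1 depth is unknown, a stretch with no region was not shown to lack the mark.

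**Figure D4:**
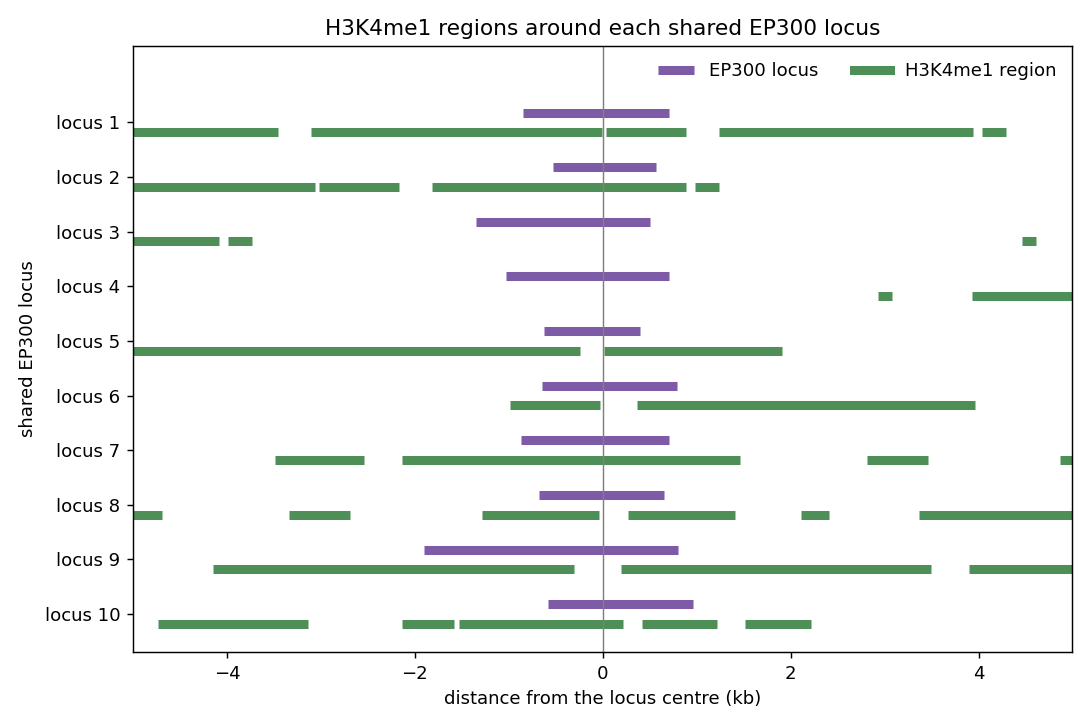
H3K4me1 regions (green) within 5 kb of the centre of each shared EP300 locus (purple, loci 1 to 10 from the top), by distance from the centre in kb. Loci 3 and 4 have no region within 2000 bp of their edges, and the centres of loci 5, 6, 8 and 9 lie in short breaks of 250 to 500 bp between regions.

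The centres of 5 of the 10 shared loci lay in a gap between regions, each within 1000 bp, where 62.3% of all shared loci did. The gaps were 250 bp wide at locus 5, 400 bp at locus 6, 300 bp at locus 8 and 500 bp at locus 9. At locus 1 the gap was 50 bp, the step of the grid on which region edges lie. The centres of loci 2, 7 and 10 were inside a region, where 12.3% of all shared loci were. With the replicate 2 summit in place of the centre, 3 loci were in a gap and no longer 5. Without EP300 replicate 2, 3 of the 11 peaks of replicate 1 were in a gap.

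All 4 peaks found in a single list overlapped H3K4me1. Over all such loci, 37.5% of those of replicate 1 and 38.4% of those of replicate 2 did. The peak below locus 1 was centred in a gap of 350 bp, where 16.2% of single-list loci of replicate 2 did. The other 3 had their centres inside a region, where 11.4% of single-list loci of replicate 1 and 15% of those of replicate 2 did. Of the 25 regions, 13 overlapped a shared locus, where 9.03% of the list did, and 15 overlapped any EP300 peak, where 18.7% did. The 10 that overlapped none included the region at 79049100 to 79050699 between loci 9 and 10, which ranked 3296, and the region at 79014100 to 79014649 in the stretch between loci 5 and 6, which ranked 23068. At the edges of the window, the first region inside ranked 52808 and the last ranked 49644, while the nearest outside, at 78940850 to 78941599 and 79073950 to 79075799, ranked 26779 and 1892.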

How the data were processed

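EP300 and H3K4me1 ChIP-seq lists were used as deposited, with mm9 coordinates per the submitters' processing notes. No aligner and no H3K4me1 caller are named in these sources. Per the file headers, the authors called EP300 peaks with MACS 1.4.1 for each replicate against its own control (36 bp tags, p-value threshold 1e-05, 200 bp fragments, background windows of 1000 and 10000 bp, at most 2 tags per position). The deposited values are tag counts per peak, a score of 10 times -log10 p (highest value 3100), fold enrichment and a false discovery rate in percent. For H3K4me1 the authors deposited a rank, a score, a false discovery rate as a fraction (a q-value), a log2 fold change and a Poisson p-value as -log10.

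A shared locus was a merged interval with peaks of both replicates overlapping by at least 1 bp, with its centre midway in the overlap of the best-ranked peaks. Tag ratios were scaled by filtered ChIP tags (31439027 and 32355042), with exact conditional binomial 95% intervals. Background was solved from tags and significance as a Poisson mean over the larger of peak length and 400 bp, for significance under 1000. The implied summit height was whole within 0.1 tags for 96.9% of 8403 and 96.1% of 10317 peaks. The functions were tested on simulated data. Python 3.11.15, numpy 2.4.6, scipy 1.17.1 and pandas 2.3.3 were used. Every peak and region of the window is reported or counted, and the rule named Sox10 and its neighbours only. The window, the split and the comparisons were chosen with earlier results of these data known, so no test was made. The alternatives covered thresholds, overlap, distances, centres, scaling and leaving out each EP300 replicate. The planned motif search and the marker loci needed mm9 sequence or annotation and were not run.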

Additional observations from a re-analysis of the deposited data

How the results depend on the processing

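No paired analysis was possible because the labels give the samples no replicate numbers and no result comes from a test between groups. In the upper 50% of each list by significance, the window held 9 and 10 EP300 peaks and 7 shared loci. All 10 shared loci remained when 50% of the shorter peak had to overlap. Without EP300 replicate 1 there were 13 loci, and without EP300 replicate 2 there were 11. The count of centres in an H3K4me1 gap, 5, was 3 with the replicate 2 summit as centre, and ranged from 3 to 6 when a replicate was left out. The lowest tag ratio of loci 1 to 3, 28.2, was 27.0 per bp of peak and 3.54 by fold enrichment. Per bp of peak, locus 3 went from 71.0 to 30.0 and locus 6 from 1.02 to 1.53. At locus 9, tags per bp of peak gave 0.747 in place of 1.34, so replicate 2 was then higher, since its peak was shorter there. The count of 120 kb tiles with as many shared loci, 1, was 2 for stretches starting at any shared locus and 3 without loci 1 to 3, both chosen after seeing the data. Intervals cover counting error only.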

Other observations

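Outside the window, 2 further shared EP300 loci had over 8 times the scaled tags in replicate 1, a group chosen after its values were seen. The locus on chromosome 12, 86814315 to 86815508 (mm9), held 770 tags in replicate 1 and 46 in replicate 2, a scaled ratio of 17.2 (exact 95% interval 12.8 to 23.7). The locus on chromosome X, 103381762 to 103382866, held 318 and 38 tags, a ratio of 8.61 (6.14 to 12.4). Fold enrichment in replicate 1 was 110.4 and 61.4, higher than at loci 1 to 3 of the Sox10 window. Their significance was above the limit for solving the replicate 1 background, so the control level at these 2 loci was not measured. The lower bounds on it were 0.355 and 0.285 times the genome-wide level, so unlike those at loci 1 to 3 they do not show a raised control. No H3K4me1 region overlapped either locus, and the nearest lay 392 bp and 1063 bp away. The next ratio in order was 3.18.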
